A study of Mus musculus with 6 samples.

Results

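The regions described here are intronic stretches of the lung endothelial cell (EC) genome whose methylation fell between infancy and young adulthood to a low level. Of the 18333 differentially methylated regions (DMRs) in the deposited list, 2304 were such members, which is 12.6%. They were selected on the measured values: a member lay on 1 of the 19 autosomes, its young adult mean methylation was below its infant mean and below 20%, and its midpoint was inside a curated RefSeq gene, in no exon and more than 1 kb from every transcription start site (TSS). The levels and the size of the fall therefore describe the selection, and no test was made on them.

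Whole genome bisulfite sequencing of tagmented DNA (T-WGBS), which reads the methylation of single cytosines in small amounts of DNA, was carried out on EC sorted from lungs of C57BL/6N mice. There were 3 infant samples, from mice 8 to 10 days old, and 3 young adult samples, from mice 8 to 12 weeks old. According to the study's methods the mice were female, and the sort took cells positive for CD31 and CD34 and free of leukocyte, erythroid and lymphatic surface markers. The table analysed here gives 1 mean per age group and DMR, not the values of the 3 samples, so no spread between replicates and no test between the ages can be given.

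In mammals most CpG dinucleotides are methylated, and stretches of low methylation outside promoters often mark enhancers, which are DNA elements that bind transcription factors and act on genes at a distance. Many enhancers lie in introns, in particular in long first introns. A cell type tends to carry low methylation at the enhancers it uses, and methylation there can be lost actively or by dilution as cells divide.

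The sequences of 8 members are shown because they lie in 8 of the 9 genes with the most members, *Smad7* being left out by the rule that chose them. In each of these 8 genes the member with the largest fall among those of at most 300 bp is printed. They are the plus strand of GRCm38 (mm10) from the RefSeq genome, from the first to the last CpG of the DMR, and capitals mark the CpGs, where methylation was measured.
Epas1: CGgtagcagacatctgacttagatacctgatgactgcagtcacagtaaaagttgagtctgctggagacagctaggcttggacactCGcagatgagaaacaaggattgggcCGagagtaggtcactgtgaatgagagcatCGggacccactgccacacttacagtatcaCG
Calcrl: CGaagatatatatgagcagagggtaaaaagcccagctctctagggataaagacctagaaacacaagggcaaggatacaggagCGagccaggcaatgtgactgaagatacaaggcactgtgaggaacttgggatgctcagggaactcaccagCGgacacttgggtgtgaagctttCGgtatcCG
Prkce: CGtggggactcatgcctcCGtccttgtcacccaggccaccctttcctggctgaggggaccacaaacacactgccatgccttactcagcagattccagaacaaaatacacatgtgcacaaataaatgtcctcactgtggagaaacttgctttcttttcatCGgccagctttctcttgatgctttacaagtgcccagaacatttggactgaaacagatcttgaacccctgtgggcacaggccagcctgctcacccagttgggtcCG
Pitpnc1: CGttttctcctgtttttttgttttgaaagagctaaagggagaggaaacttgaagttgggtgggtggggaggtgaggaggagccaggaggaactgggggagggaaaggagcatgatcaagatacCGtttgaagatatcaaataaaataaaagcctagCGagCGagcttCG
Casz1: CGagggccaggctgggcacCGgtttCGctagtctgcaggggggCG
Itpkb: CGggagcctCGctCG
Smad6: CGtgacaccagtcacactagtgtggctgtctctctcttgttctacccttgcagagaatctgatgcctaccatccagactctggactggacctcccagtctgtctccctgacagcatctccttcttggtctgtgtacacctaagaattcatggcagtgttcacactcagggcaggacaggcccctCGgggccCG
Msi2: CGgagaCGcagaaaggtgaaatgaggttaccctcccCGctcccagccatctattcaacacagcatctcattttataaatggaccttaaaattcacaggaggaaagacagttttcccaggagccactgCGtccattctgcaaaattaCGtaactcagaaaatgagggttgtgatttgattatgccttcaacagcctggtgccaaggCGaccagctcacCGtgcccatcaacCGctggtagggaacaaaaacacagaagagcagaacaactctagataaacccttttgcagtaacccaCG

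The *Epas1* member was chr17:86792103-86792272 in intron 1, 38322 bp from the start of the transcript. It held 5 CpGs, and its mean methylation was 66.98% in infants and 9.16% in young adults. The *Calcrl* member, chr2:84386612-84386794 in intron 2, also held 5 CpGs and had means of 74.1% and 13.9%. These 2 members were about equally far from their start sites.

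The *Prkce* member, chr17:86446897-86447160 in intron 2, went from 58.9% to 7.20%, and the *Pitpnc1* member, chr11:107452315-107452483 in intron 1, from 80.1% to 15.9%. The last of these was the most repetitive of the 8, with 81.7% of its bases masked as repeats. The *Casz1* member, chr4:148905448-148905492 in intron 4, had 4 CpGs in 45 bp and means of 61.1% and 8.25%. The *Itpkb* member, chr1:180357287-180357301 in intron 2, packed 3 CpGs into 15 bp and had the highest infant mean of all members, 80.8%, against 15.7% in young adults. The *Smad6* member, chr9:63972551-63972743 in intron 3, went from 69.0% to 18.4%. The *Msi2* member, chr11:88654966-88655263 in intron 5, had the most CpGs of the 8, 9, and went from 69.8% to 13.9%. The 8 differed in CpG number and repeat content, and their high infant means follow from being chosen for the largest fall.

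Members as a whole were partly methylated in infants. The infant mean ran from 10.2% to 80.8% with a median of 44.3% (quartiles 34.9% and 53.0%), and 67.5% of members were below 50% already in infants. Young adult means ran from 0 to 19.99% with a median of 11.3% (quartiles 6.55% and 15.5%). The difference, young adult minus infant, had a median of -32.2 percentage points (quartiles -39.7 and -25.2), and 147 members fell by at least 50 points. Only 42.9% of members were below 10% in young adults and 18 were at exactly 0, so that the set is one of low rather than absent methylation.

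The other 3916 intronic regions with loss, whose young adult mean was 20% or more, started from a median infant mean of 71.2% (quartiles 62.1% and 80.2%) and reached 35.3% (quartiles 27.1% and 45.1%). Their median difference was -33.2 points. At the median the members lost about as many percentage points as the other intronic regions and began lower. With similar falls, a lower start follows from the cut at 20% and is not a separate result. Falls of at least 30 points made up 58.5% of members and 65.7% of the others. Of the others, 4.70% were below 50% in infants. The plot of infant against young adult means shows both sets as 1 continuous cloud that the 20% line divides.

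**Figure D1:**
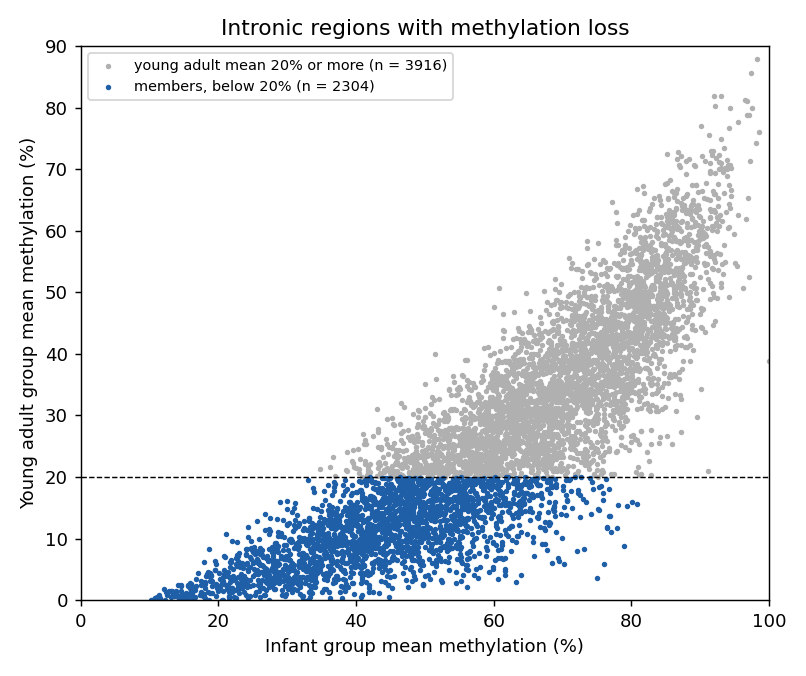
Group mean methylation in infants (x axis, percent) and young adults (y axis, percent) of every autosomal intronic region with loss, 1 point per region. The 2304 members (blue) lie below the dashed line at 20% and the 3916 others (grey) on or above it. No gap separates them, and infant means of members spread from 10.2% to 80.8%.

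At the line itself, the nearest members were a region in *Tango6* at 19.99% in young adults and 42.1% in infants, and one in *Ifnar1* at 19.99% and 64.5%. Just outside were a *Smad6* region at 20.01% and 66.4% and a *Col4a1* region at 20.01% and 46.7%. The 283 intronic loss regions from 18% to below 20% had a median infant mean of 54.2%, and the 281 from 20% to below 22% had 55.9%. The threshold therefore falls in the middle of a gradual distribution.

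Within the members, those that held more CpGs had higher infant means. The 1186 members with 3 CpGs, the smallest number a listed DMR could have, had medians of 41.5% in infants and 10.7% in young adults. The 593 with 5 to 9 CpGs had 48.3% and 11.8%, and the 66 with 10 or more had 54.4% and 12.9%. The young adult medians differed by less than the infant medians, so the median difference went from -29.8 points at 3 CpGs to -41.6 points at 10 or more. Infant and young adult means of members ran together (Spearman's rho = 0.64 over 2304 members), values that the ceiling and the minimum difference of the list both constrain.

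Of the 18 members at 0 in young adults, the 10 with the highest infant means are named. They lay in *Bcar3*, an adaptor of integrin and SRC signalling (33.0% in infants), *Dach1*, a transcription factor (32.3%), *Mlxip*, which codes for the glucose-responsive factor MondoA (27.3%), *Zc3h12a*, an RNase that limits inflammatory transcripts (21.5%), *Cbfa2t3*, a transcriptional corepressor (20.7%), *Map4k3*, a kinase (20.5%), *Setd7*, a lysine methyltransferase (18.7%), *Lhfp* (16.5%), *Tcf4*, a basic helix-loop-helix factor (15.8%), and *Fam53b* (15.6%). All 10 began below 34% in infants, and 8 of the 10 held 3 CpGs. How many reads stood behind a level of 0 is unknown.

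The members with the largest falls began near the top of the infant range, which follows from choosing them by their fall. The largest fall was in intron 2 of *Pml*, the scaffold of PML nuclear bodies, where 3 CpGs went from 75.002% to 3.61%, a difference of -71.4 points. In intron 1 of *Fmo1*, a flavin-containing monooxygenase, 5 CpGs went from 76.1% to 5.83%. In *Prickle2*, a planar cell polarity gene, 3 CpGs went from 79.0% to 8.81%. These 3 members lay between 1450 bp and 7399 bp from the start of their gene's transcript.

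The next largest falls were in the lncRNA gene *Gm12216* (77.9% to 11.7%, 15 CpGs), in *Ankrd44*, a regulatory subunit of protein phosphatase 6 (77.0% to 11.1%), and in the *Itpkb* member printed above. Then came *Adgrf5*, an adhesion receptor of lung epithelium and endothelium, with 2 members of the 10 (73.2% to 8.27% and 70.2% to 5.88%), *Cav2*, which codes for the caveolar coat protein caveolin-2 (76.4% to 11.7%), and *Hopx*, a homeodomain gene used as a marker of alveolar type I epithelium (76.5% to 11.9%). In all 10, chosen for the largest fall, the infant mean was above 70%.

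The 5 widest members held 14 to 30 CpGs each. The widest spanned 2139 bp of intron 1 of *Cyth3*, an exchange factor for ARF GTPases, and its 27 CpGs went from 66.5% to 13.5%. In intron 1 of *Epas1*, which codes for the oxygen-regulated transcription factor HIF-2α, 29 CpGs over 2118 bp went from 68.9% to 13.8%. In intron 1 of *Plxna1*, a semaphorin receptor, 30 CpGs over 1889 bp went from 51.9% to 6.66%, the largest number of CpGs in any member. *Hpgd*, which inactivates prostaglandins, had a member of 1615 bp (53.6% to 8.71%), and *Cd47*, an integrin-associated surface protein, 1 of 1487 bp (48.2% to 8.31%). Members were otherwise short, with a median width of 131.5 bp, and together they covered 404 kb and 9798 CpGs.

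The 2304 members lay in 1088 genes, which is 5.12% of the 21258 autosomal RefSeq genes with an intron. A single member was found in 669 genes, 2 to 5 in 351 and more than 5 in 68, and the last held 652 members, or 28.3%. Genes with a member were long, with a median of 65.4 kb of intron against 15.3 kb over all genes with an intron, and the shares were not corrected for length. Another intronic region with loss was present in 58.6% of these genes and an intronic region with gain in 27.9%, against 6.67% and 10.8% of all genes with an intron. Of the 68 genes with more than 5 members, 54 had no region with gain anywhere in the gene and 67 had another intronic region with loss.

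The 12 genes with the most members held 216 of them. *Epas1* came first with 32, followed by *Calcrl*, the receptor for adrenomedullin, and *Prkce*, protein kinase C epsilon, with 25 each. *Pitpnc1*, a phosphatidylinositol transfer protein, had 18, *Casz1*, a zinc finger factor of vascular development, 17, and *Itpkb*, an inositol trisphosphate kinase, and *Smad6*, an inhibitor of BMP signalling, 16 each. *Smad7*, an inhibitor of TGFβ signalling, had 15, *Msi2*, an RNA-binding protein, 14, *Prickle2* and *Tmcc3* 13 each, and *Arhgef3*, an exchange factor that activates small GTPases, 12, tied with *Cyth3*.

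**Figure D2:**
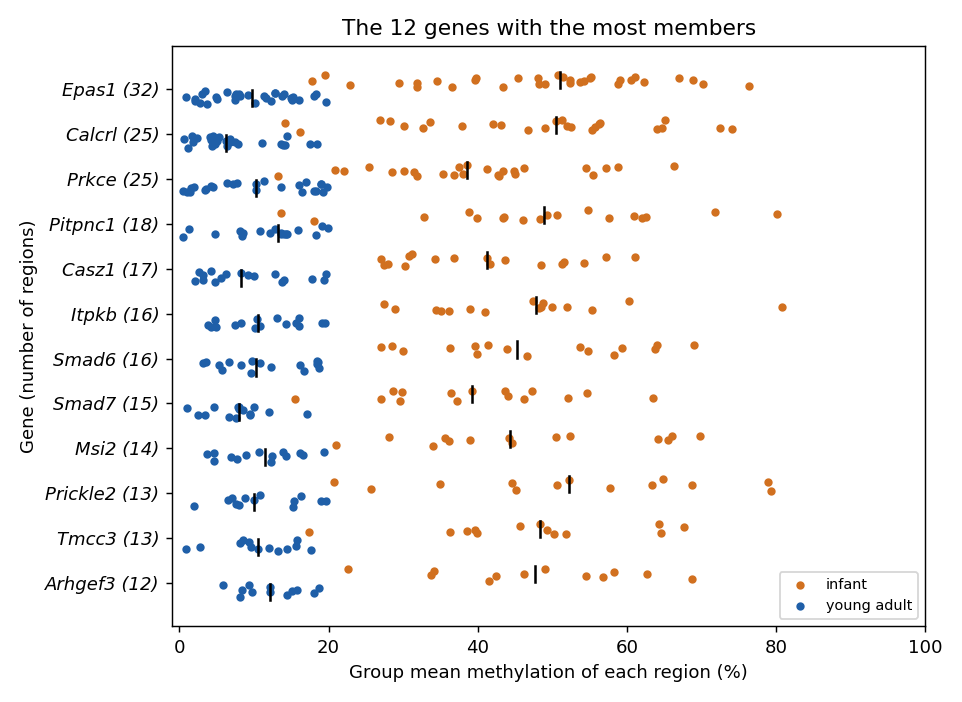
Group mean methylation (x axis, percent) of each member in the 12 genes with the most members, in infants (orange) and young adults (blue). 1 point is 1 member and black ticks are medians over the members of a gene. Infant medians lie between 38.5% (Prkce) and 52.3% (Prickle2) and young adult medians between 6.22% (Calcrl) and 13.2% (Pitpnc1).

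In *Epas1* the members lay between chr17:86760556-86821771, a span of 61.2 kb in a gene of 79.5 kb, and 27 of the 32 were in intron 1. Their infant means ran from 17.8% to 76.3% (median 51.0%) and their young adult means from 0.877% to 19.7% (median 9.68%). The gene had 46 listed DMRs in all, each with loss, and the 13 other intronic ones had medians of 64.3% and 27.3%. The map of the gene shows most members from 6.72 kb to 42.1 kb from the start, with other regions with loss between some of them. The last member is at 67.8 kb.

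*Calcrl* had the lowest young adult median of the 12 genes, 6.22%. Its 25 members lay in introns 1 and 2 within 39.1 kb, with infant means from 14.1% to 74.1% (median 50.5%) and young adult means from 0.556% to 18.4%. Beyond the last member, 45.6 kb from the start, the map holds only regions that stayed at or above 20% or lay outside introns. All 35 DMRs in the gene lost methylation.

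*Smad6* showed the opposite balance, with 16 members among 61 DMRs, all with loss. Its members' infant means ran from 27.1% to 69.0% (median 45.2%) and their young adult means from 3.19% to 18.7% (median 10.3%), and 15 of the 16 were in the third and last intron. The 42 other intronic regions had medians of 71.1% and 30.6%, and the map shows them between the members along the whole gene. In *Smad7*, where the members spanned 18.9 kb, 15 of 26 DMRs were members. Their infant means ran from 15.6% to 63.5% (median 39.3%) and their young adult means from 1.06% to 17.1% (median 8.04%).

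**Figure D3:**
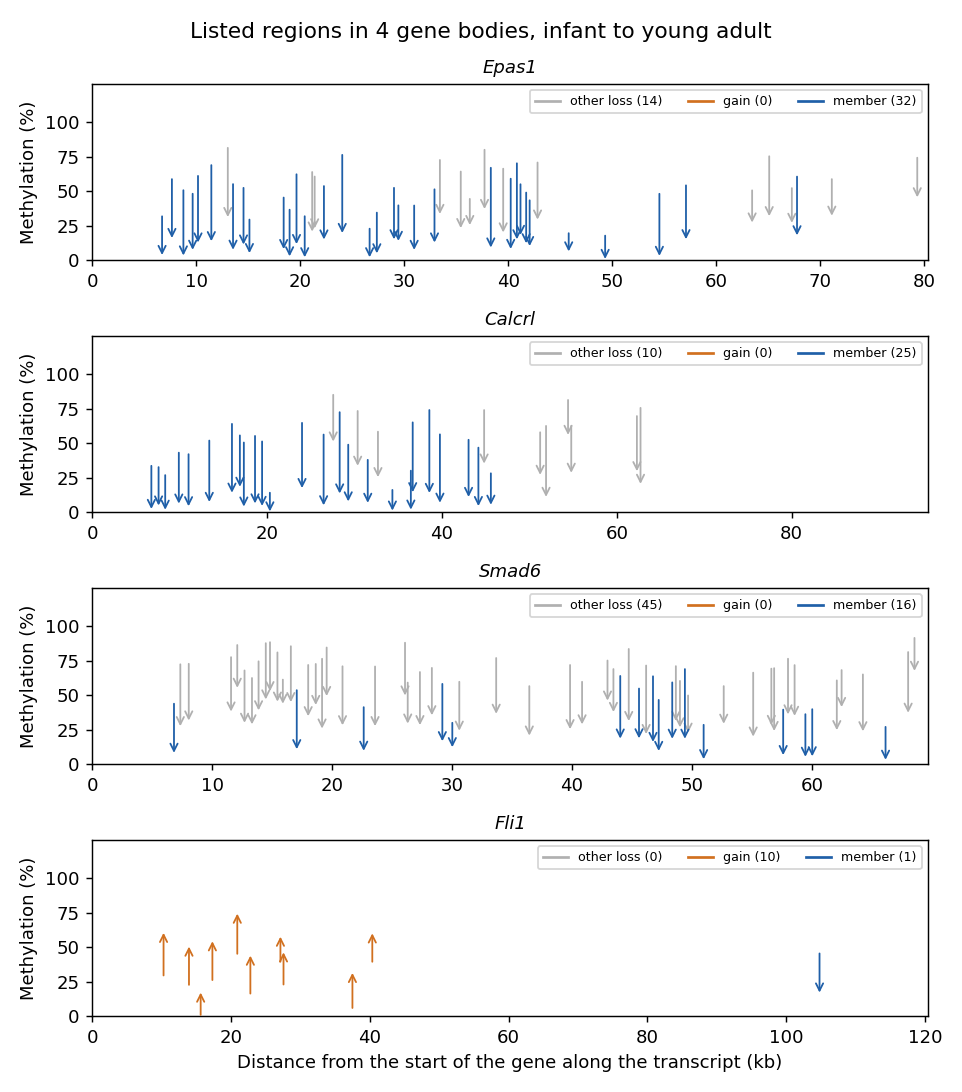
Listed DMRs along Epas1, Calcrl, Smad6 and Fli1, by distance from the start of the gene (x axis, kb). Each arrow runs from the infant to the young adult group mean (y axis, percent), with members in blue, other regions with loss in grey and regions with gain in orange. Epas1, Calcrl and Smad6 hold 32, 25 and 16 members and no region with gain, and Fli1 holds 1 member and 10 regions with gain.

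*Prkce*, the longest of these genes at 490 kb, had its 25 members spread over 463 kb and over 6 introns, with an infant median of 38.5% and a young adult median of 10.3%. *Pitpnc1* had 12 of 18 members in intron 1 and medians of 48.8% and 13.2%. The 17 members of *Casz1* had medians of 41.2% and 8.25%, and 12 of them lay within 35.0 kb. In *Itpkb* no member was in intron 1, and the medians of its 16 members were 47.8% and 10.6%. The remaining 4 genes had infant medians from 44.4% (*Msi2*) to 52.3% (*Prickle2*) and young adult medians from 9.96% (*Prickle2*) to 12.1% (*Arhgef3*), and all 12 members of *Cyth3* were in intron 1, with medians of 54.0% and 11.7%. Of these 13 genes, 11 held no region with gain, the exceptions being *Tmcc3* with 4 and *Arhgef3* with 1.

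Over the 68 genes with more than 5 members, the gene medians of infant means ranged from 28.6% in *Gata2*, a transcription factor of blood and endothelium, to 62.7% in *Bmpr2*, the type II BMP receptor. Young adult medians ranged from 4.56% in *Gata2* to 16.2% in *Arhgap31*, a GTPase-activating protein for CDC42 and RAC1. The 6 *Gata2* members had infant means from 23.5% to 54.5% and young adult means from 0.887% to 15.4%. The 7 *Bmpr2* members, all in intron 1, had infant means from 42.7% to 75.3% and young adult means from 6.402% to 14.8%, so the 2 genes overlapped in both age groups.

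Members often lay near one another and near other regions with loss. Another member was found within 10 kb of 48.4% of them (95% Wilson interval 46.4% to 50.4%). A region of the same kind was within 10 kb for 60.8% of the other intronic loss (59.2% to 62.3%), 31.0% of intronic gain (29.6% to 32.4%) and 30.5% of intergenic regions that fell below 20% (26.8% to 34.5%), sets that differ in number of regions. The interval of members lay below that of the more numerous other intronic loss and above those of the other 2 sets, and the differences were not tested. Joining members at most 10 kb apart gave 1565 runs, of which 35 had 5 or more members and held 284. The longest run had 31 members over 50.4 kb of *Epas1*, followed by 25 in *Calcrl* and 15 in *Smad7*. Of the members, 1683 had another listed DMR of any kind within 10 kb, at a median gap of 1046 bp, and the nearest one had lost methylation in 93.6% of cases, against 46.3% of all listed autosomal DMRs. Where the nearest DMR had lost methylation, it was itself below 20% in young adults in 45.5% of cases. Its median was 22.2% (quartiles 12.1% and 34.7%). Of all intronic regions with loss 37.0% were below 20%, but the nearest DMR could also lie outside introns, so the 2 shares are not of like sets.

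Position within the gene was described as a feature that the rule used only in part. Intron 1 held 46.5% of members (95% Wilson interval 44.5% to 48.5%), intron 2 19.5%, intron 3 8.77% and later introns 25.2%. Intron 1 held 44.1% of the other intronic regions with loss (42.6% to 45.7%) and 32.9% of intronic regions with gain (31.5% to 34.3%). The intervals of members and other loss overlapped, and both lay above that of gain. These intervals count regions as independent, which neighbours in a gene are not. The level did not follow the intron number, with infant medians of 43.5%, 45.1%, 45.0% and 44.0% in introns 1, 2, 3 and later, and young adult medians of 11.2%, 10.6%, 11.4% and 11.8%.

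The median distance of members to the nearest TSS was 14.1 kb, against 17.8 kb for the other intronic loss and 27.3 kb for intronic gain. The share of intronic loss regions that were members was 50.3% (45.1% to 55.4%) from 1 to 2 kb, 42.4% from 2 to 5 kb and 38.5% from 5 to 10 kb. It was lowest from 20 to 50 kb, at 32.5% (30.3% to 34.8%), and 39.2% (34.3% to 44.3%) beyond 100 kb. Low levels in young adults were thus most frequent close to the promoter-proximal zone that the rule left out, where 55.4% of the 278 regions with loss were below 20%. In intergenic DNA 40.4% of 1361 regions with loss were below 20%, and in exons 36.0% of 555.

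**Figure D4:**
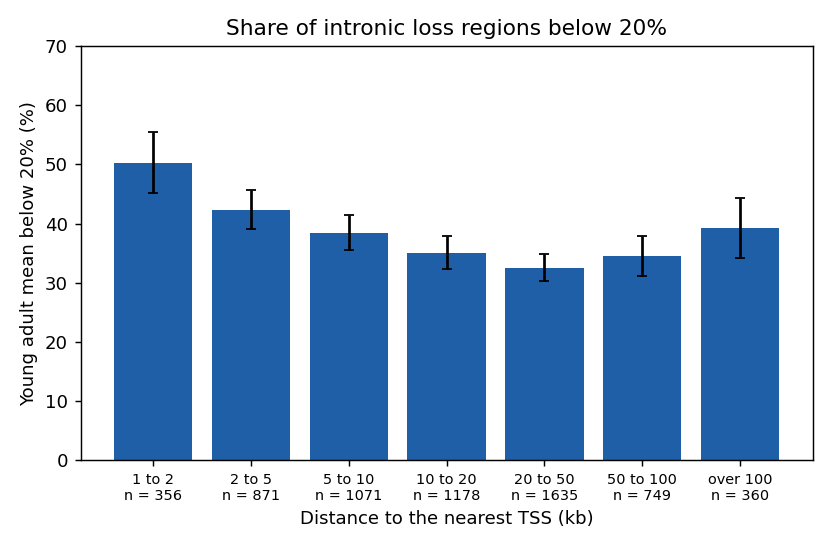
Share of autosomal intronic regions with loss that had a young adult mean below 20% (y axis, percent), by distance to the nearest TSS (x axis, kb). Bars are shares, error bars are 95% Wilson intervals and n is the number of regions. The share is 50.3% at 1 to 2 kb and 32.5% at 20 to 50 kb.

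In base composition members resembled the other intronic regions. In the 200 bp around the midpoint the median GC content was 48.5% in members, 48.0% in the other intronic loss and 48.0% in intronic gain, and the median ratio of observed to expected CpGs was 0.333, 0.328 and 0.323. CpG islands, stretches rich in GC and CpG that mark many promoters, overlapped 8.98% of members (7.88% to 10.2%), 10.3% of the other intronic loss (9.38% to 11.3%) and 12.3% of intronic gain (11.4% to 13.4%). Members were thus mostly CpG-poor DNA. The part of windows that was over 50% repeat was 4.60% in members (3.82% to 5.53%) and 7.76% in the other intronic loss (6.97% to 8.64%), 2 intervals that did not overlap. Regions with 5 or more CpGs made up 28.6% of members (26.8% to 30.5%), 25.2% of the other loss and 7.54% of gain.

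Short words bound by transcription factor families were searched on both strands of the 200 bp windows. More words were searched than are given here, and the intervals were not adjusted for the number compared. AGGAAG, a word of ETS factors such as ERG and FLI1, was found in 30.9% of member windows (29.0% to 32.8%), 28.0% of the other intronic loss (26.7% to 29.5%), 28.4% of intronic gain, 31.5% of intergenic regions that fell below 20%, and 28.6% of all listed DMRs. The longer ETS word AGGAAGT was in 7.51% of members (6.50% to 8.66%), 5.36% of the other intronic loss (4.70% to 6.11%), 6.73% of gain (6.01% to 7.52%) and 6.18% of all DMRs. The intervals of members and the other loss did not overlap. In intergenic regions that fell below 20% the share was 8.18% (6.17% to 10.8%), an interval that overlapped that of members. AGATAA of GATA factors was in 13.98% of members (12.6% to 15.5%), 13.6% of the other loss and 9.97% of gain (9.10% to 10.9%), against 11.7% of all DMRs. GTAAACA of forkhead factors was in 5.86% of members (4.97% to 6.89%) and 3.15% of gain (2.66% to 3.72%), against 4.36% of all. For the GATA word the interval of members overlapped that of the other loss (12.6% to 14.7%), as it did for the forkhead word (5.42% to 6.92%), and for both it was apart from that of gain. Intergenic regions that fell below 20% held the GATA word in 17.3% (14.3% to 20.7%) and the forkhead word in 5.09% (3.55% to 7.26%). Both intervals overlapped those of members.

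TTGGCA of NFI factors was in 15.9% of members (14.5% to 17.5%), 13.8% of the other loss (12.7% to 14.9%) and 10.2% of gain, against 12.3% of all DMRs. GGGTGTG of KLF factors was in 7.38%, 6.95% and 4.48%, against 5.55% of all. AGGTCA, a recognition word of nuclear receptors, went the other way, with 10.98% of members (9.77% to 12.3%), 11.03% of the other loss and 15.4% of gain (14.3% to 16.5%), against 13.1% of all. The E-box CANNTG, a common word, was in 66.7% of members and 65.98% of all DMRs. Some words were less frequent in members than in all DMRs. Among them were GGCGC of SMADs (8.20% against 9.67%), ACAATGG of SOX factors (2.13% against 2.78%) and TGTGGTT of RUNX factors (3.56% against 4.14%). The GGCGC share was also below that of all DMRs in the other intronic loss (7.56%), gain (8.08%) and intergenic regions that fell below 20% (6.55%). Others, such as TTCCNGGAA of STAT factors (1.26% against 0.900%), were more frequent in members. For the GGCGC, SOX, RUNX and STAT words the intervals of members and of all DMRs overlapped. Of the 8 printed members, those in *Epas1*, *Calcrl* and *Prkce* held E-boxes. The one in *Epas1* also held AGGTCA, and the one in *Calcrl* GGGTGTG. The one in *Msi2* held a GATA word, an NFI word and TTGCNNAA of CEBP factors. None of the 8 held AGGAAG, and shorter ETS words were not searched. A word match does not show that a factor binds there.

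The members in genes of known roles were counted by list, beside the 5.12% of all genes with an intron that held a member and the 2.44 members per Mb of intron over all genes. Among 14 general endothelial markers with an intron, 4 held members, 30 in all or 37.7 per Mb. They were *Pecam1* (8), which codes for the CD31 antigen of the sort, *Cdh5* (6), the VE-cadherin of endothelial junctions, *Eng* (6), the TGFβ co-receptor endoglin, and *Erg* (10), an ETS factor that maintains endothelial identity. The other 10, among them *Kdr*, *Tek*, *Tie1* and *Cd34*, held none. Of 42 markers of epithelium, mesenchyme, leukocytes and lymphatic EC, 1 held a member, the *Hopx* region described above, which is 2.38%. That share is near the 5.12% of all genes with an intron, so it is not read as a lack of members in these markers. The lists were short and not corrected for intron length, and the counts do not identify the cell type. Expression was not analysed here.

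**Figure D5:**
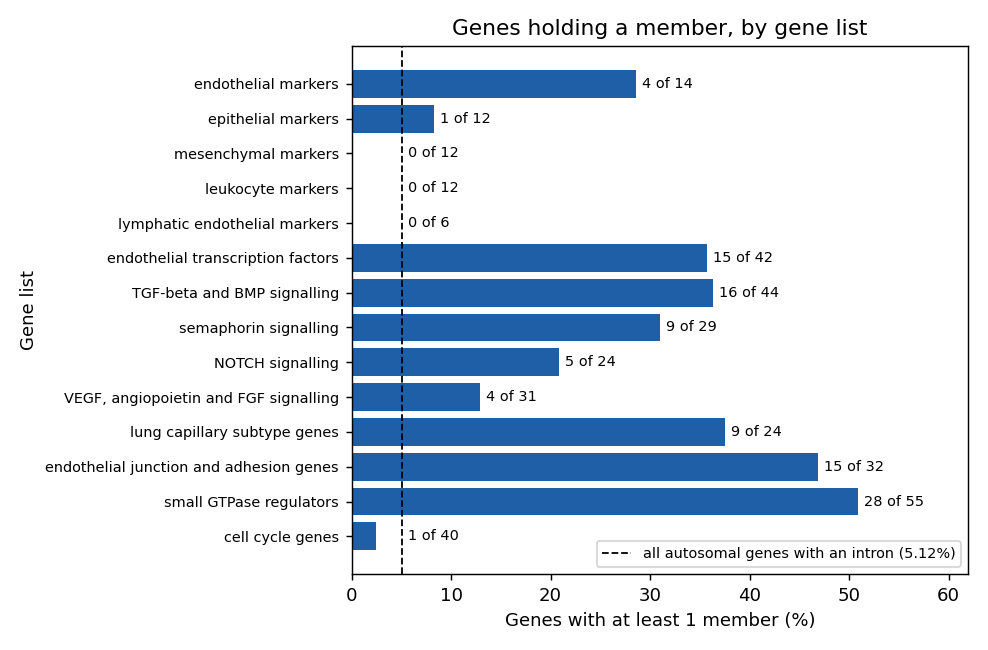
Percent of the genes of each list that held at least 1 member (x axis), with the number of genes beside each bar and the 5.12% of all autosomal genes with an intron as a dashed line. Lists of small GTPase regulators and junction genes reach 50.9% and 46.9%. Mesenchymal, leukocyte and lymphatic markers, lists of 12, 12 and 6 genes, are at 0.

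In the endothelial marker genes, *Erg* members lay 141 kb to 225 kb from the start of the longest transcript that held them. Distances to other start sites of the gene are not given. Their infant means ran from 21.5% to 62.9% and their young adult means from 1.42% to 19.7%. The *Cdh5* members were mostly in intron 1, with infant means from 27.2% to 54.5% and young adult means from 1.37% to 17.2%. The *Pecam1* members had infant means from 22.8% to 68.7% and young adult means from 5.69% to 19.7%. In *Eng* a member with 20 CpGs in intron 1 went from 52.9% to 12.96%, and over its 6 members the young adult means ran from 5.08% to 15.02%.

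Of 42 endothelial transcription factor genes, 15 held 76 members, or 22.2 per Mb of intron. *Epas1* held 32 of them, *Erg* 10, *Gata2* 6, *Tcf4* 6, *Klf7*, a Krüppel-like factor, 5, and *Foxo3*, a forkhead factor under insulin and growth factor control, 4. The *Foxo3* members had infant means from 44.8% to 60.3% and young adult means from 6.21% to 10.5%, whereas the *Tcf4* members ran from 15.8% to 47.2% and from 0 to 14.9%. The other 9 genes had 1 or 2 members each. *Fli1*, the nearest relative of *Erg*, had 1 member, which went from 45.5% to 17.1%, and 10 intronic regions with gain, while *Erg* had 10 members and 1 region with gain. *Foxp1* likewise had 2 members and 15 intronic regions with gain, so the list did not move in 1 direction.

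TGFβ and BMP signalling runs from ligands through type I and type II receptors to SMAD proteins, and inhibitory SMADs, ubiquitin ligases and SKI proteins restrain it. Of 44 such genes, 16 held 65 members, or 21.7 per Mb. The study drew attention to this family, and to semaphorins, from these same samples, so the counts are not independent evidence. Among ligands, *Bmp6* held 1 member (61.2% to 8.96%). Among receptors, *Bmpr2* held 7, *Eng* 6, *Acvr1b* 5, with infant means from 19.7% to 61.2% and young adult means from 2.63% to 18.3%, and *Acvrl1*, the endothelial type I receptor ALK1, 1 (31.3% to 3.53%). *Tgfbr3*, *Acvr1*, *Acvr2a* and *Acvr2b* also held 1 each, and *Tgfbr1*, *Tgfbr2*, *Bmpr1a* and *Bmpr1b* held none. Among restraining genes, *Smad6* held 16, *Smad7* 15, *Smurf2*, a ubiquitin ligase, 4 (infant means from 28.3% to 62.7% and young adult means from 3.03% to 19.1%), and *Ski*, a corepressor of SMADs, 3 (32.1% to 34.5%, and 7.27% to 11.4%). *Smurf1* and *Skil* held 1 each. Of the SMADs that carry the signal, *Smad1* held 1 member (53.0% to 13.1%) and 8 intronic regions with gain, and *Smad3* no member and 4 such regions. Across the list, other intronic loss lay in 11 genes (95 regions) and intronic gain in 11 (29 regions).

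Semaphorins and their plexin receptors guide axons and vessels. Of 29 such genes 9 held 28 members, or 8.21 per Mb. *Sema6a* held 9, with infant means from 18.5% to 65.3% and young adult means from 4.60% to 19.4%, beside 35 other intronic regions with loss. *Sema6d* held 5 (infant 35.6% to 56.5%, young adult 1.83% to 19.5%), *Sema3f* 3 (15.9% to 40.6%, and 2.04% to 15.1%) and *Plxna1* 3 (29.3% to 55.3%, and 0.868% to 6.999%). The receptor *Plxna4* had 2 members and 15 intronic regions with gain.

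NOTCH genes, which set arterial and tip cell fate, held 7 members in 5 of 24 genes, or 4.15 per Mb, with none above 2. VEGF, angiopoietin and FGF signalling held 11 in 4 of 31 genes, or 5.63 per Mb. Of these *Fgf1*, a growth factor, held 5 (infant 23.5% to 55.1%, young adult 3.16% to 14.1%) and *Plcg1*, the phospholipase downstream of VEGF receptors, 3 (22.4% to 47.2%, and 3.39% to 19.3%). *Flt1*, the VEGF receptor 1, held 2. *Kdr*, the main signalling VEGF receptor, held none.

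Genes that distinguish lung capillary subtypes held 17 members in 9 of 24 genes, or 9.96 per Mb. *Prx*, which codes for periaxin, *Hpgd* and *Cd36*, a fatty acid transporter, held 3 each, with young adult means from 14.8% to 16.7%, from 2.85% to 13.4% and from 5.04% to 14.4%. The infant means were 39.8% to 44.9% in *Prx*, 40.7% to 53.6% in *Hpgd* and 47.8% to 67.9% in *Cd36*. *Ednrb*, the endothelin receptor of aerocytes, held 1 member (42.3% to 13.6%) and 9 other intronic regions with loss.

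Junction and adhesion genes held 31 members in 15 of 32 genes, or 9.33 per Mb. Apart from *Pecam1* and *Cdh5*, which also count as markers, 12 of these genes held 1 or 2 each, among them *Ctnnb1*, which codes for β-catenin (49.999% to 19.2%), and *Itga3*, an integrin subunit, with 2.

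The list with the largest share was that of small GTPases and their regulators, which shape the cytoskeleton and barrier. Here 28 of 55 genes held 96 members, or 10.6 per Mb in 9.04 Mb of intron. *Arhgef3* and *Cyth3* held 12 each, *Arhgap31* 10, *Agap1* 9, *Rhoj*, an endothelial GTPase, 6, *Dock9* 5, *Rac1*, *Rap1a*, *Asap1* and *Sipa1l1* 4 each, and *Fgd5* and *Elmo1* 3 each. The *Arhgap31* members ran from 37.2% to 62.1% in infants and from 6.23% to 19.6% in young adults. The *Agap1* members ran from 27.4% to 62.1% and from 0.758% to 19.99%, the last lying just inside the threshold. The *Rhoj* members ran from 17.5% to 60.4% and from 1.39% to 19.7%.

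The remaining members of this list had similar ranges. The *Rac1* members had infant means from 38.4% to 52.2% and young adult means from 3.34% to 19.2%, those of *Rap1a* from 47.5% to 63.7% and 6.72% to 16.2%, and those of *Dock9* from 36.8% to 59.6% and 8.01% to 17.998%. The *Fgd5* members, in an activator of CDC42 in endothelium, reached 0.439% in young adults from 10.8% in infants at the lowest, and 14.5% at the highest. *Asap1*, *Sipa1l1* and *Elmo1* had young adult means from 13.1% to 18.8%, 1.79% to 15.5% and 2.51% to 19.03%. Of 40 cell cycle genes 1 held a member (2.5%, or 1.03 per Mb), against 5.12% of all genes and 2.44 members per Mb. With 0.973 Mb of intron, these genes are too few to tell the count from the overall share. The member lay in *Cdkn1b*, which codes for the inhibitor p27 (27.1% to 7.15%). The cell cycle genes held no other intronic loss and 13 intronic regions with gain. The latter lay in 5 of the 40 genes, against 10.8% of all genes with an intron.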

How the data were processed

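Methylation was measured by T-WGBS in 3 infant and 3 young adult samples of sorted lung EC, grouped by the age in the labels. The authors aligned reads with BWA 0.6.1 after bcl2fastq 1.8.4 and called DMRs with bsseq in R 3.2.2 (tools and versions from the submitters' processing notes and the study's methods). A listed DMR had at least 3 consecutive CpGs, each below 0.05 in a t-test and covered 8-fold or more in 2 or more samples per group, and group means that differed by at least 10%. The deposited values are the authors' means per age group, as a fraction, and here they were multiplied to percent. The list was itself chosen by testing these samples, so listed differences tend to be large. The depth behind a DMR is unknown, and intervals cover only the number of regions. The columns of the authors' own direction call and nearest promoter were not used.

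Of the listed DMRs, 100% started and ended at a CpG of GRCm38.p6 when positions were read as counted from 0, and printed positions count from 1. The 45756 curated RefSeq transcripts gave exons, gene bodies and TSSs. When a midpoint lay in more than 1 gene (28 members), protein-coding genes and then the longest gene were preferred. Introns were numbered in the longest transcript that held the midpoint, and CpG islands (200 bp, GC at least 50%, observed to expected CpG above 0.6) were computed from the sequence. Repeats are the lower-case bases of the RefSeq genome. Functions were tested on simulated data. Python 3.11.15, pandas 2.3.3, numpy 2.4.6, statsmodels 0.14.6 and matplotlib 3.10.9 were used.

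The members, gene lists and words were chosen with earlier results of these data known. Named were the 12 genes with the most members, the 10 members with the lowest young adult mean (ties by the higher infant mean), the 10 with the largest fall, the 5 widest and every listed gene with at least 3 members, apart from 1 that is not reported here. Other genes, such as *Fli1*, *Foxp1*, *Kdr*, *Smad1*, *Bmp6*, *Acvrl1*, *Plxna4*, *Flt1*, *Ednrb*, *Ctnnb1*, *Itga3* and *Cdkn1b*, were chosen after their values were seen. Alternatives changed the ceiling, the TSS distance, the transcripts, the genes, the exon rule, the CpG minimum and the joining of near members.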

Additional observations from a re-analysis of the deposited data

How the results depend on the processing

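No paired analysis was possible because the table analysed holds 1 mean per age group, and for the same reason no replicate was left out in turn. The 70 values recomputed under alternatives are given here where they moved beyond a factor of 1.5 for a count or beyond the 95% interval of the main value otherwise. Requiring at least 5 CpGs left 659 members in 408 genes, 12 genes with more than 5 members, a median infant mean of 49.0%, and shares of 14.87% with a CpG island, 33.69% within 10 kb of another member and 27.31% with the ETS word. With a ceiling of 15% in young adults, 41 genes had more than 5 members, the median infant mean was 39.88% and 41.02% of members lay within 10 kb of another, and with 25% these were 108 genes, 47.92% and 53.56%. The share in intron 1 was 44.05% over 2 kb from every TSS and 52.60% when any curated transcript could place a member there. Islands of at least 500 bp overlapped 0.347% of members. Joining members at most 500 bp apart left 42.89% within 10 kb of another, and distances of 2 kb and 50 kb gave 26.22% and 67.06%. The ETS word was in 25.04% of the regions themselves and in 51.61% of windows of 400 bp. A higher or lower ceiling, distance or window admits more or fewer regions by construction. Why members with at least 5 CpGs differed in infant level, island share and ETS share was not tested. The other 49 values stayed within those bounds.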

Other observations

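Members in lncRNA genes were few, 40 in 33 genes. *Lncpint* and *4921511C10Rik* held 3 each, with median infant means of 40.4% and 42.5% and median young adult means of 13.2% and 10.7%. *Chaserr*, *Gm11696* and *Gm12216* held 2 each, and the *Gm12216* members had medians of 48.5% and 6.45%. *Bvht*, a lncRNA known from heart development, held 1 (30.1% to 7.16%).

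Of the 1428 enhancers and other regulatory elements that RefSeq annotates on the mouse chromosomes, 2 of 2304 members overlapped one (0.0868%, 95% Wilson interval 0.0238% to 0.316%). The counts were 5 of 3916 for the other intronic regions with loss (0.128%, 0.0545% to 0.299%), 28 of 4193 for intronic regions with gain (0.668%, 0.462% to 0.963%) and 73 of all 18333 listed DMRs (0.398%). Both members lay in elements of the VISTA collection of enhancers tested in embryos. One, in *Inpp5a*, a phosphatase of inositol trisphosphate, went from 54.7% to 8.62%, and the other, in the lncRNA gene *Tbx3os1*, from 53.7% to 19.1%. In *Smad6*, 2 regions that stayed above 20% lay in another such element (60.8% to 24.7% and 68.2% to 41.4%).

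The X chromosome, which the rule left out, carried 165 listed DMRs, of which 8 lost methylation (4.85%, against 46.3% on autosomes). Of these 3 were intronic, and none of them reached a young adult mean below 20%. Over the autosomes the members' share of intronic regions with loss ran from 31.2% on chromosome 1 to 44.2% on chromosome 17, where *Epas1* and *Prkce* lie.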
